A study of Mus musculus with 5 samples.

Results

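The miRNAs mmu-miR-2861, mmu-miR-3960, mmu-miR-188-5p, and mmu-miR-5115 are 4 of the 1247 mouse miRNAs printed on the arrays of this series. They were chosen by 2 features, a large log2 ratio at 24 h over sham and a sequence rich in G and C, and all 4 were detected on all 5 arrays, as were 182 miRNAs in all. Male C57B/6 mice underwent bilateral renal ischemia reperfusion injury (IRI) with 30 min of warm ischemia, and kidneys were taken at 6, 12, 24, or 48 h. The sham group was operated on in the same way, but its renal vessels were not clamped. The methods describe 8 mice per time point, but the series holds 1 array for each of the 5 groups, and pooling of RNA for the arrays is not stated. No spread between animals was measured, so no test between groups was made. The number of arrays is what limits the precision. Each value is given with its scanner error, which the scanner software assigns within 1 array and which is not the measured spread of the spots. For miR-3960 the probe signals were 9.84 to 9.99 times their error on every array, so the error was a nearly fixed share of the signal.

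A mature miRNA is cut from a hairpin transcript and guides a silencing complex to mRNAs, mainly through its seed, bases 2 to 8 from the 5′ end. The genes of miR-2861 and miR-3960 form a cluster that is best known from bone, where the transcription factor Runx2 induces it during osteoblast differentiation, miR-2861 represses the histone deacetylase Hdac5, and miR-3960 represses the homeobox gene Hoxa2. The gene of miR-188 belongs to a miRNA cluster on the X chromosome inside Clcn5, which encodes a chloride/proton exchanger of proximal tubule endosomes. Acute kidney injury (AKI) after IRI mainly strikes the proximal tubule.

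The sequences are shown because richness in G and C was part of how the 4 miRNAs were chosen. Mature sequences and hairpins were taken from RefSeq (GRCm38.p6), which held 2 of the 4 mature sequences. Capitals mark the seed in a mature sequence, and in the hairpin of miR-3960 they mark the stretch bound by the longest probe.
miR-2861, mature: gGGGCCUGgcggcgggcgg
miR-188-5p, mature: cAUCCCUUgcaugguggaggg
miR-3960, hairpin: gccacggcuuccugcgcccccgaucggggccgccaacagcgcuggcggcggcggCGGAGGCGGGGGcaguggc
The longest probe of each miRNA, as the array design gives it, is the complement of the stretch it binds.
miR-2861, probe 2: ccgcccgccg
miR-3960, probe 2: cccccgcctccg
miR-188-5p, probe 4: ccctccaccatgc
miR-5115, probe 2: gggcccagctcg
All probes of miR-2861 and miR-188-5p match the 3′ end of their mature sequence, so the arrays read the 3′ part and not the seed.

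In GRCm38.p6, Mir2861 lies on the minus strand at chr2:32712807-32712888 and Mir3960 at chr2:32712900-32712972, with 11 bases between them. The nearest protein-coding gene is Cdk9, a kinase of transcription elongation, whose span lies 22 bases from Mir2861. Mir188 lies at chrX:7247989-7248056, within the span of Clcn5. The deposited annotation places the longest probe of miR-5115 at chr2:73012878-73012888, within the span of the long noncoding RNA gene Gm39850, and its strand was not settled here. These are 3 separate places on 2 chromosomes. The G and C share of the stretch bound by the longest probe was 100% for miR-2861, 91.7% for miR-3960, 83.3% for miR-5115, and 69.2% for miR-188-5p, against a median of 50% over the 182 miRNAs. This contrast follows from the choice of the members. The stretches were short, with 10 to 13 bases against a median of 17. In 3 of the 4 the share of G alone was 61.5% to 75%, against a median of 30.4%, while miR-5115 had 41.7%. The mature sequences of miR-2861 and miR-188-5p held 94.7% and 61.9% G and C.

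No pair of the 4 shared more than 6 bases in a row within these stretches, and that pair was miR-2861 with miR-3960. The seed of miR-2861 was also found in miR-3091-3p, which was on the arrays and not detected on any of them. The seed of miR-188-5p was also found in miR-7061-3p, for which the arrays had no probe.

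The 5 arrays differed in ways that touch every ratio. Sham and 6 h shared slide 1 and a scan. The 12 and 24 h arrays shared slide 2 and another scan, and the 48 h array was on slide 2 but was scanned separately. For 12, 24, and 48 h over sham, group and slide cannot be told apart. The software multiplied probe signals by the effective feature size of the array, 0.6 for sham, 6 h, and 48 h, 0.774 for 12 h, and 0.776 for 24 h. The geometric mean of 4 spike-in control RNAs over sham was 1.05-fold after 6 h, 2.08-fold after 12 h, 2.13-fold after 24 h, and 2.06-fold after 48 h. The median log2 ratio over sham of the 182 miRNAs was 0.16 after 6 h, 0.55 after 12 h, 1.03 after 24 h, and −0.23 after 48 h. The labels name a labeling kit made for mRNA, the Low Input Quick Amp kit, beside a miRNA array, and which labeling was used was not settled here. Between 197 and 298 miRNAs were detected per array. Ratios are given unscaled, relative to this median, and scaled to the spike-ins. Listed kidney epithelium miRNAs (miR-192-5p, miR-194-5p, miR-204-5p, miR-30a-5p, miR-200b-3p, and miR-10a-5p) were detected on all arrays, 6 of 6.

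The signal of miR-2861, summed over its own 2 detected probes, was 26.6 ± 2.6 on the sham array. It was 181 ± 13 after 6 h, 290 ± 21 after 12 h, 226 ± 17 after 24 h, and 63.6 ± 5.1 after 48 h. All arrays after IRI stood above sham by far more than the scanner error, with the highest signal at 12 h. The unscaled log2 ratio over sham was 2.76 ± 0.17 after 6 h, 3.45 ± 0.17 after 12 h, 3.09 ± 0.17 after 24 h, and 1.26 ± 0.18 after 48 h. In bulk tissue, more cells that hold a miRNA and more of it per cell cannot be told apart.

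The signal of miR-3960, the clustered neighbor of miR-2861, was 143 ± 10 in sham. It was 888 ± 63 after 6 h, 1672 ± 118 after 12 h, 1056 ± 75 after 24 h, and 335 ± 24 after 48 h. The course ran the same way, from the lowest signal in sham to the highest at 12 h. Its unscaled log2 ratio over sham was 2.63 after 6 h, 3.55 after 12 h, 2.88 after 24 h, and 1.23 after 48 h, with errors of 0.15. At each time point, the ratios of miR-2861 and miR-3960 differed by less than their combined scanner errors.

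The signal of miR-188-5p, summed over 4 probes, was 14.9 ± 1.4 in sham, 78.9 ± 4.2 after 6 h, 128 ± 7 after 12 h, 110 ± 6 after 24 h, and 41.7 ± 2.7 after 48 h. It too was highest at 12 h and lowest in sham, where 30 of its 40 spots were well above background. The unscaled log2 ratio over sham was 2.40 after 6 h, 3.10 after 12 h, 2.89 after 24 h, and 1.48 after 48 h, with scanner errors of 0.16 to 0.17.

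The signal of miR-5115 was 5.66 ± 1.34 in sham, 18.5 ± 2.5 after 6 h, 95.5 ± 7.7 after 12 h, 89.9 ± 7.9 after 24 h, and 23.6 ± 3.0 after 48 h. This was the only member whose signal stood several fold higher at 12 h than at 6 h. In sham only 1 of its 2 probes was detected, so that its unscaled log2 ratios of 1.71 ± 0.39 after 6 h, 4.08 ± 0.36 after 12 h, 3.99 ± 0.36 after 24 h, and 2.06 ± 0.39 after 48 h compare 1 probe with 2. With probe 2 alone, which was detected on all arrays, they were 1.12 ± 0.41, 3.49 ± 0.37, 3.44 ± 0.38, and 1.62 ± 0.40.

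**Figure D1:**
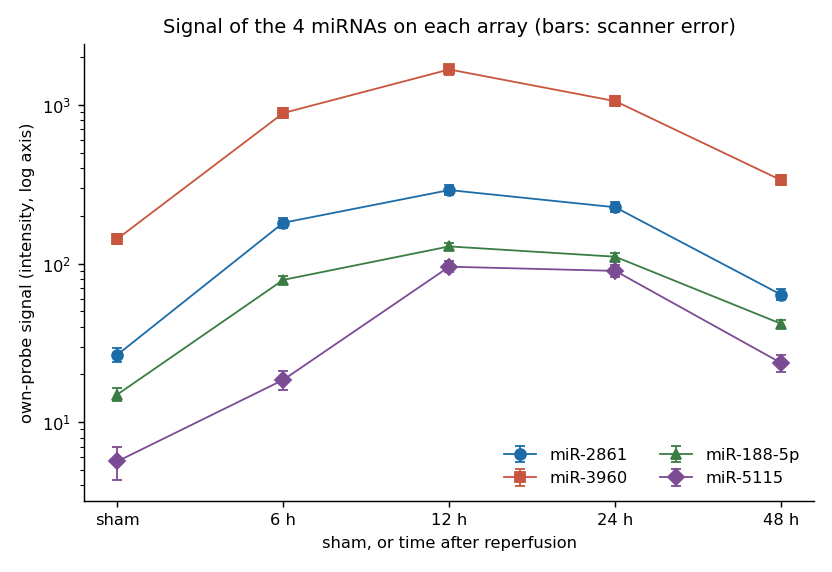
Own-probe signal (intensity, log axis) of the 4 miRNAs on the sham array and on the arrays at 6, 12, 24, and 48 h, 1 point per array, with bars for the scanner error. Each miRNA was lowest in sham and highest at 12 h, where miR-3960 reached 1672 and miR-2861 290.

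Relative to the median miRNA, the log2 ratios over sham stayed well above 0 at every time point. For miR-2861 they were 2.61 after 6 h, 2.90 after 12 h, 2.06 after 24 h, and 1.49 after 48 h. For miR-3960 they were 2.48, 2.999, 1.85, and 1.46 in the same order. For miR-188-5p they were 2.24, 2.55, 1.85, and 1.71. For miR-5115 they were 1.55, 3.53, 2.96, and 2.29, or 0.96, 2.94, 2.40, and 1.85 with probe 2 alone. Although selected at 24 h, 3 of the 4 on this scale were higher at 6 h than at 24 h, and all 4 were higher at 12 h than at 24 h. On these arrays the elevation over sham was thus not limited to 24 h, and the miRNAs are called here by their names. The members were chosen on a ratio to the same 1 sham array, and a low sham value would raise their ratios at every time point. The ratios, ranks, and 2-fold counts at 6, 12, and 48 h are therefore not independent of the choice.

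**Figure D2:**
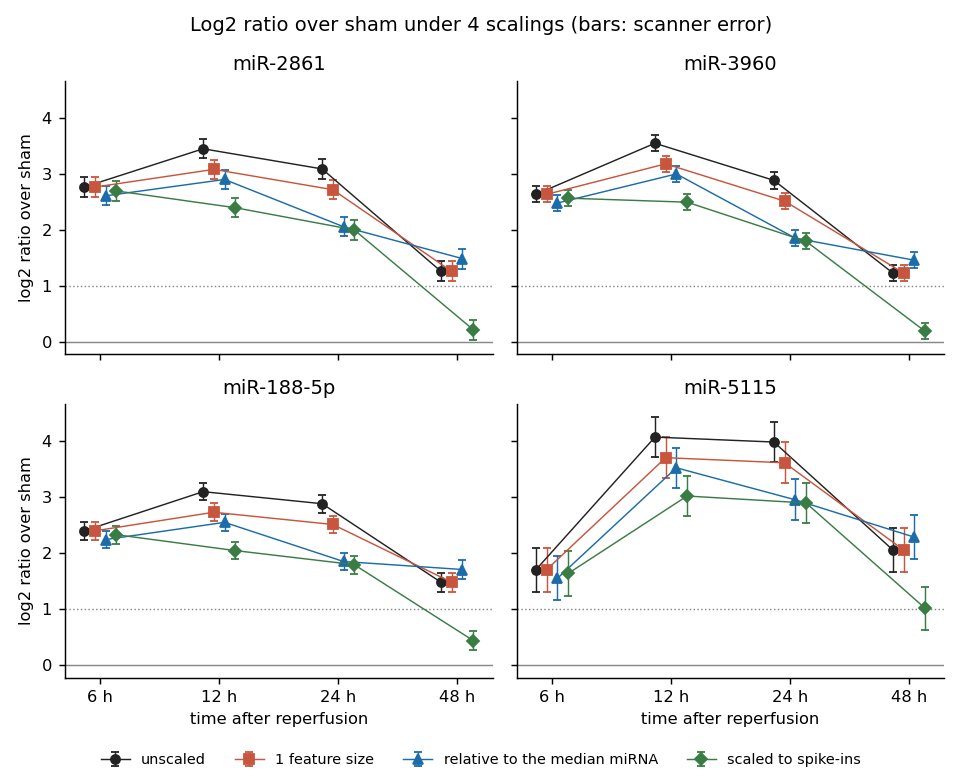
Log2 ratio over sham of the 4 miRNAs at 6, 12, 24, and 48 h, unscaled, with 1 feature size on all arrays, relative to the median miRNA, and scaled to the spike-ins. Bars give the scanner error and the dotted line marks a 2-fold ratio. The scalings nearly coincide at 6 h and differ most at 48 h, where miR-2861 lies between 0.22 and 1.49.

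At 6 h, the time point whose array shares slide, scan, and feature size with sham, miR-2861 had the highest and miR-3960 the second-highest ratio of the 182 miRNAs. MiR-188-5p was number 4 and miR-5115 number 14, or number 33 with probe 2 alone. All 4 were at least 2-fold above sham, where 19.2% of the 182 were so unscaled. Relative to the median miRNA, 4 of 4 passed 2-fold, against 17.6% of the 182, and with probe 2 alone for miR-5115 it was 3 of 4. The spike-ins moved by 0.07 ± 0.08 on the log2 scale between these arrays, and scaling to them gave log2 ratios of 2.70, 2.57, 2.33, and 1.64 for miR-2861, miR-3960, miR-188-5p, and miR-5115, the last being 1.05 with probe 2 alone.

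At 12 h the members were number 9, 6, 13, and 5 of the 182 for miR-2861, miR-3960, miR-188-5p, and miR-5115. All 4 were at least 2-fold above sham unscaled, as were 30.8% of the 182, and all 4 relative to the median miRNA, as were 20.3%. Scaled to the spike-ins, their log2 ratios lay between 2.05 and 3.02. With 1 feature size on all arrays, they lay between 2.73 and 3.71. Both upper ends are those of miR-5115, which with probe 2 alone had 2.43 and 3.12 and was number 7.

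The ratio at 24 h over sham, on which the members were selected, is given as a description. MiR-5115 was number 1, miR-2861 number 3, miR-188-5p number 4, and miR-3960 number 5 of the 182. Number 2 was miR-21a-5p, a miRNA known to rise in many injured tissues, with an unscaled log2 ratio of 3.25. Just inside the selection, miR-3960 had 2.88, and just outside it miR-125a-3p had 2.86 and miR-6538 2.80. All 4 were past 2-fold by construction, as were 51.1% of the 182 unscaled and 12.6% relative to the median miRNA.

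At 48 h the members were number 9, 10, 7, and 2, with miR-5115 the highest of them, or number 5 with probe 2 alone. All 4 were at least 2-fold above sham unscaled, as were 7.69% of the 182, and relative to the median miRNA, as were 11.0%. Scaled to the spike-ins, the log2 ratios were only 0.22 for miR-2861, 0.19 for miR-3960, 0.44 for miR-188-5p, and 1.02 for miR-5115, or 0.58 for probe 2 of miR-5115 alone. The log2 ratios of the single spike-ins at 48 h over sham ranged from 0.63 to 1.28. Scaled to their mean, the median of the 182 was −1.27. The size of the members' elevation at 48 h therefore depended on the scaling, and all ratios over sham share the sham array.

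**Figure D3:**
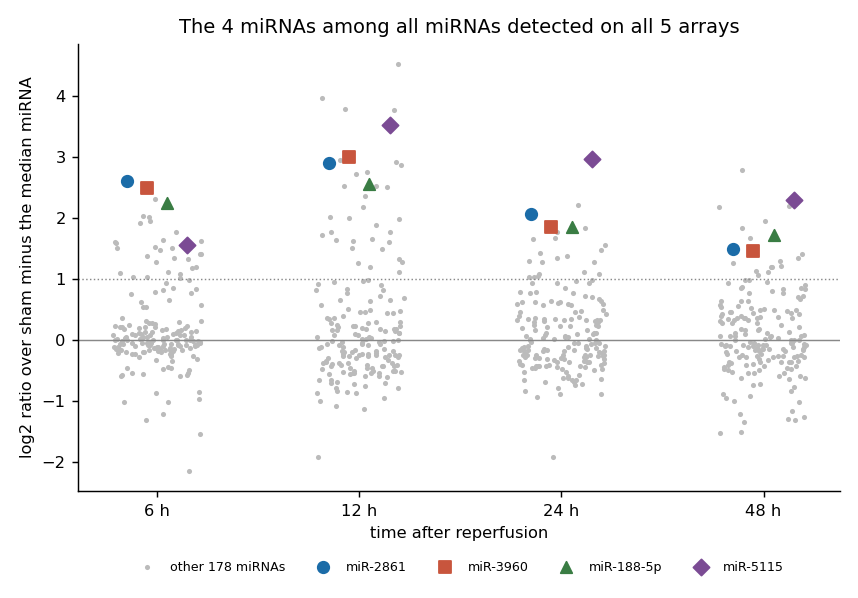
Log2 ratio over sham minus that of the median miRNA for the 182 miRNAs detected on all 5 arrays (vertical axis) at each time point. Colored symbols are the 4 members, gray points the other 178, and the dotted line marks 2-fold. MiR-2861 at 2.61 is the highest point at 6 h, while at 12 h 4 gray points lie above all members.

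Between 12 and 24 h, on arrays of 1 slide and 1 scan, miR-2861, miR-3960, and miR-188-5p were lower at 24 h, while most of the 182 miRNAs were higher. The unscaled log2 ratio of 24 h over 12 h was −0.36 ± 0.15 for miR-2861, −0.66 ± 0.14 for miR-3960, −0.22 ± 0.11 for miR-188-5p, and −0.09 ± 0.17 for miR-5115. The median of the 182 was 0.46, and 146 of them were higher at 24 h. Relative to this median the members were at −0.82, −1.13, −0.68, and −0.55, which placed them at number 162, 166, 157, and 153 of the 182. The unscaled difference of miR-5115 was smaller than its scanner error. Spots of the 12 and 24 h arrays did not overlap for 2 of 2 probes of miR-3960 and 1 of 2 of miR-2861. For miR-188-5p this held for 0 of 4 probes, and for miR-5115 for 0 of 2. Overlap between these arrays was not counted over the other miRNAs, so how common its absence was is not known.

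The 24 and 48 h arrays shared a slide but differed in scan and feature size. The unscaled log2 ratios of 48 h over 24 h were −1.83 ± 0.16, −1.66 ± 0.15, −1.41 ± 0.12, and −1.93 ± 0.22 for miR-2861, miR-3960, miR-188-5p, and miR-5115. The median of the 182 was −1.24, and 3 of them were higher at 48 h. The members were thus lower at 48 h by more than the median miRNA, at −0.59, −0.41, −0.16, and −0.69 relative to it. The 6 and 12 h arrays differed in slide, scan, and feature size. From 6 to 12 h, miR-2861, miR-3960, and miR-188-5p had relative ratios of 0.28, 0.51, and 0.30, and scaled to the spike-ins these were −0.30, −0.07, and −0.28. The order of 6 and 12 h thus turned with the scaling for miR-2861 and miR-188-5p. For miR-3960 the value scaled to the spike-ins was smaller than its scanner error of 0.14. The log2 ratios of the single spike-ins at 12 h over 6 h ranged from 0.70 to 1.67, so the order was not settled for these miRNAs. For miR-5115 the ratio of 12 h over 6 h was 1.97 relative to the median and 1.38 scaled to the spike-ins, so it was higher at 12 h on both scales.

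For miR-2861, miR-3960, and miR-188-5p, each probe alone was higher after IRI than in sham, but the size of the ratio differed between probes. The unscaled log2 ratio at 6 h over sham was 2.90 and 2.63 for the 2 probes of miR-2861, and 2.65 and 2.62 for those of miR-3960. For the 4 probes of miR-188-5p it lay between 2.08 ± 0.28 for probe 4, the longest, and 2.81 ± 0.38 for probe 1, the shortest. Probe 1 also had the highest and probe 4 the lowest ratio of these 4 at 12, 24, and 48 h. Each miRNA was printed in 40 spots, none of them saturated. The spots of probe 1 of miR-3960 ranged from 231 to 273 in sham and from 1405 to 1669 at 6 h. At 24 h they ranged from 1322 to 1523, so before the feature size was applied the 6 and 24 h spots overlapped. The spots of probe 1 of miR-2861 ranged from 34.2 to 57.6 in sham and from 277 to 370 at 6 h. For these 3 miRNAs no spot of sham reached any spot of the same probe at 6, 12, 24, or 48 h. Overlap of spots was not counted over the other miRNAs, so how common this was on the arrays is not known.

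MiR-5115 was nearer to the background. In sham, 0 of the 20 spots of probe 1 and 10 of the 20 spots of probe 2 were well above it, and probe 1 had a signal of 2.34 ± 1.23, so no fold is given for that probe. Spots of probe 2 ranged from 8.13 to 34.2 in sham and from 31.6 to 58.1 at 6 h, so that the 2 arrays overlapped. At 12 h they ranged from 130 to 205 and at 24 h from 121 to 200, without overlap with sham. At 48 h they ranged from 52.2 to 74.6, again above all spots of probe 2 in sham. Spots of probe 1 ranged from 0.62 to 18.5 in sham and from 12.3 to 28.9 at 48 h, and so overlapped. Spots show the precision within an array and are not replicates of a condition.

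**Figure D4:**
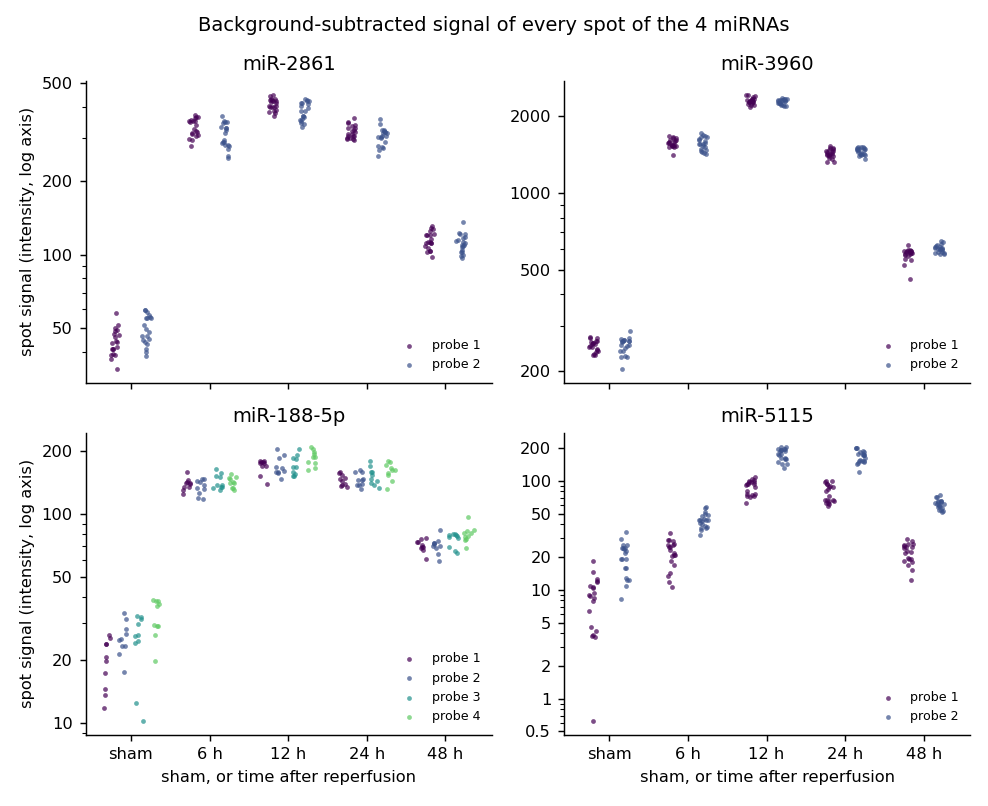
Background-subtracted signal (log axis) of every spot of the 4 miRNAs on the 5 arrays, 1 point per spot, colored by probe, before multiplication by the feature size. Sham spots of miR-3960 probe 1 end at 273 and those at 6 h begin at 1405. The sham spots of miR-5115 overlap those at 6 h, and for its probe 1 also those at 48 h.

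The detected other products of the miR-188 cluster did not share the course of miR-188-5p. Of 9 such products on the arrays (both arms of miR-362, miR-500, miR-501, and miR-532, and miR-188-3p), 3 were detected on all arrays, and 6 were detected on none and have no course to compare. MiR-188-3p, the other arm of the same hairpin, was among those not detected. MiR-500-3p had a signal of 27.0 ± 2.8 in sham, 30.9 ± 3.3 after 6 h, 35.0 ± 4.1 after 12 h, 46.4 ± 5.5 after 24 h, and 16.9 ± 2.3 after 48 h. Relative to the median miRNA its log2 ratios were 0.04, −0.17, −0.25, and −0.45 at 6, 12, 24, and 48 h. MiR-362-3p stayed between −0.23 and 0.36, and miR-532-5p, whose gene is 345 bases from Mir188, between −0.27 and 0.05. All 3 lay below the lowest value of miR-188-5p on this scale, which was 1.71 at 48 h. Unscaled at 24 h, miR-362-3p was at 1.14 and miR-532-5p at 0.86, against 2.89 for miR-188-5p and a median of 1.03 over the 182. Both were dim, with sham signals of 7.20 ± 1.41 and 8.31 ± 1.47.

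Among the 182 miRNAs, the courses over the 5 arrays most like the mean course of the 4 members were those of miR-6538, miR-211-3p, miR-2137, miR-5126, and miR-5128. Likeness was measured as the root mean square distance of centered log2 signals relative to the median miRNA, and these 5 had distances of 0.21, 0.35, 0.41, 0.42, and 0.46. The median of the miRNAs other than members was 1.05. Of the members themselves, miR-188-5p, miR-3960, and miR-2861 had 0.19, 0.21, and 0.22, and miR-5115 had 0.52, number 12 in the order. Each member is itself part of that mean course, so its distance is not comparable with those of the other miRNAs. MiR-6538 had signals of 12.3 in sham, 67.8 after 6 h, 121 after 12 h, 86.3 after 24 h, and 25.8 after 48 h. It was thus lowest in sham and highest at 12 h as the members were, and its mature sequence from RefSeq has the same G and C share as miR-2861, 94.7%. The capitals again mark the seed, which differs from that of miR-2861.
miR-6538, mature: cGCGGGCUccggggcggcg

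Bases that a probe target has in common with other miRNAs were counted in the 1017 of 1247 miRNAs on the arrays that have a mature sequence in RefSeq. The target of miR-2861 shared at most 8 of its 10 bases in a row with another miRNA, miR-5126, and that of miR-3960 at most 7 of 12, with miR-5126 and miR-3110-3p. MiR-5126 had relative log2 ratios of 1.60, 1.87, 1.05, and 1.12 at 6, 12, 24, and 48 h. The target of miR-188-5p shared at most 8 of 13 bases in a row, with 5 miRNAs. Of these, miR-6368 was detected on all arrays, with relative log2 ratios of −0.46, 0.09, −0.38, and −0.36. The target of miR-5115 shared at most 8 of 12, with miR-326-3p and miR-346-3p, neither of which was detected on all arrays. Whether a probe bound another RNA was not tested.

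The other miRNAs rich in G and C also had median ratios above that of the 182. Without the members, 20 of the 182 had at least the G and C share of miR-188-5p in the stretch bound by the longest probe. Their median log2 ratio over sham relative to the median miRNA was 0.79 after 6 h, 1.03 after 12 h, 0.73 after 24 h, and 0.33 after 48 h. The remaining 158 had medians of −0.01, −0.08, −0.10, and −0.07. At least 2-fold above sham on this scale were 9, 10, 7, and 3 of the 20 at these times, against 19, 23, 12, and 13 of the 158. The 20 ranged from −1.02 to 2.30 at 6 h, so a high share of G and C did not come with a rise in each of them.

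With mature sequences in place of the bound stretches, which 149 of the 182 had, the medians were lower. They were 0.32, 0.74, 0.36, and 0.22 at 6, 12, 24, and 48 h over 24 miRNAs. Across the 178 miRNAs other than the members, which share the arrays and are not independent, Pearson's r between the G and C share of the bound stretch and the relative ratio was 0.24 after 6 h, 0.26 after 12 h, 0.29 after 24 h, and 0.01 after 48 h. Spearman's rho was 0.12, 0.27, 0.24, and −0.02. These relations were weak, and at 48 h r and rho were near 0. The part of base composition in the members' ratios was not tested.

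**Figure D5:**
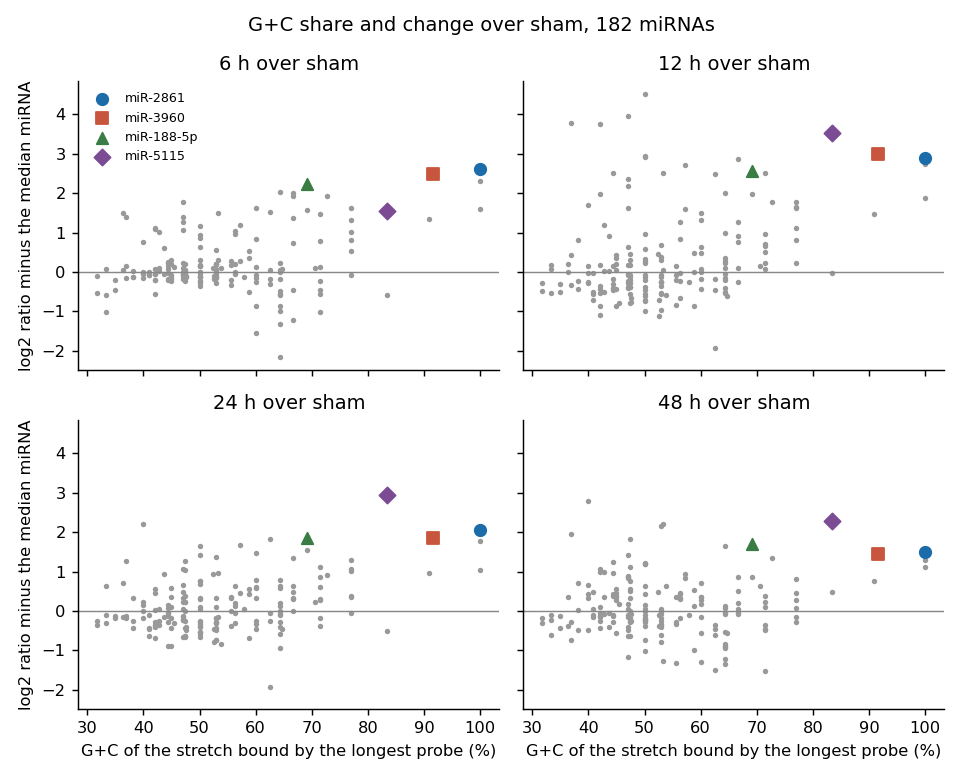
G and C share (percent) of the stretch bound by the longest probe (horizontal axis) against the log2 ratio over sham minus that of the median miRNA (vertical axis), 1 point per miRNA, for 182 miRNAs and 4 time points. Colored symbols are the 4 members. MiR-2861 sits at 100% and miR-188-5p at 69.2%, and gray points at like shares spread from −1.02 to 2.30 at 6 h.

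Markers of other cells were read beside these results. Of the 2 red blood cell miRNAs listed, miR-144-3p was not detected on any array, and miR-451a had signals between 105 and 538, with relative log2 ratios of 1.49, 0.00, 0.72, and −0.37 at 6, 12, 24, and 48 h. Of the 4 leukocyte miRNAs listed, miR-142-5p and miR-150-5p were not detected on any array, and the summed signal of the list lay between 29.6 in sham and 89.5 at 12 h. MiR-223-3p, which was detected on all arrays, had relative log2 ratios of 1.01, 1.19, −0.36, and 0.98. Of the 2 endothelial miRNAs, miR-126-5p was detected in sham only, and miR-126-3p had relative log2 ratios between −0.43 and −0.06, with a summed signal of the pair between 586 and 1284. The 6 kidney epithelium miRNAs summed to signals between 2407 and 4985, and their median relative ratio lay between −0.28 and −0.10. They did not move together, with single ratios from −0.76 for miR-10a-5p at 12 h to 1.65 for miR-204-5p at 24 h. The part of these cells in the members' ratios was not tested.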

How the data were processed

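Kidney miRNAs were measured on 1-color Agilent mouse miRNA arrays, 1 array for each of 5 groups, with groups taken from the sample labels. The authors deposited intensity values written by Agilent Feature Extraction 10.7.1.1, with background subtraction and detrending of the spots of each array and no normalization between arrays. A second deposited table holds processed log2 values, whose making is not given in the sources used here. Its column medians lay between −3.32 and −3.01 log2, and its highest value was 17.03 in all 5 columns. It ranked the 182 detected miRNAs exactly as the own-probe signals did, and its scale and centering stay unknown. In it the median log2 ratio of the 182 over sham was −0.27, −0.58, −0.23, and −0.02 at 6, 12, 24, and 48 h. Under quantile normalization it was −0.27, −0.53, −0.23, and −0.02. The table served as an alternative, but it may not be separate from quantile normalization. No column of the authors' own comparisons was found. RNA came from 20 mg of tissue. The labels describe labeling of 0.1 µg of RNA with a kit made for mRNA, while the methods name only the standard protocols of the manufacturer.

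The signal of a miRNA was the sum of its probe signals, each probe counted once, over probes above 3 times their error. Log2 ratios between arrays were given unscaled, with 1 effective feature size, relative to the median of the 182 miRNAs detected on all 5 arrays, and scaled to the geometric mean of 4 spike-ins. Errors are those of the scanner software, combined over probes and arrays. A ratio of at least 2-fold was counted as higher. No test was made, since each group had 1 array. The miRNAs named are the 4 members, the 5 of nearest course, those next to the members in the order at 24 h, the other arms and cluster products, miRNAs of the same seed or of the longest shared run, and marker lists. The members and lists were chosen with earlier results of these data known. Deposited coordinates of probes to minus-strand miRNAs lay in the mirror image of the mature miRNA within its hairpin in 472 of 472 cases, so gene positions were taken from RefSeq (GRCm38.p6). R 4.3.3 with limma 3.58.1 (normexp) and Python 3.11.15 with pandas 2.3.3, numpy 2.4.6, and matplotlib 3.10.9 were used. The ratio computation was tested on simulated data. The alternatives are given in the closing section.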

Additional observations from a re-analysis of the deposited data

Results flagged for a closer look

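The spike-in control RNAs, which served here only to scale the ratios, differed between arrays by more than their scanner error. The log2 ratio of the geometric mean of the 4 spike-ins over sham was 1.05 after 12 h, 1.09 after 24 h, and 1.04 after 48 h, with errors of 0.08. At 12 h the single spike-ins ranged from 0.70 to 1.68. No group had enough arrays to look for an outlying array.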

How the results depend on the processing

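No paired analysis was possible because there was 1 array per group. The median log2 ratio of the 4 members over sham was 2.99 unscaled at 24 h. Relative to the median miRNA it was 2.36, 2.95, 1.95, and 1.60 at 6, 12, 24, and 48 h. Each of these values stayed above 0 under all 13 alternatives. At 24 h the members were selected on this ratio, so its sign there is a description. The values at the other time points share the sham array of that selection, so their signs are not independent of it. Alternatives that change only the reference median leave the unscaled value as it is. The 6 h result, the sums over probes detected on all arrays, the reference median without the members, the ranks of miR-5115 with probe 2 alone, the G and C share of mature sequences, and the G and C relation without the members were added after seeing the data. Values that moved by more than the scanner error were as follows. The unscaled 24 h value was 2.62 with 1 feature size and 2.61 with medians over spots, which leave the feature size out. Scaled to the spike-ins, the values were 1.90 at 24 h in place of the unscaled value, 2.44 at 12 h, and 0.33 at 48 h. Scaled to the 75th percentile, they were 1.83 at 24 h and 2.22 at 6 h. Quantile normalization gave 1.99 at 24 h in place of the unscaled value, 1.99 after 6 h, 2.47 after 12 h, and 1.46 after 48 h. Normexp, whose offset lowers ratios of dim miRNAs, gave 1.40 unscaled and 0.99 relative after 24 h, 1.25 after 6 h, 1.47 after 12 h, and 0.64 after 48 h. The processed table gave 2.01 at 24 h in place of the unscaled value, 2.07 at 6 h, and 2.59 at 12 h. The brightest probe in sham alone gave 2.19 at 6 h and 1.44 at 48 h. The gene signal of the software gave 2.74 at 12 h and 1.41 at 48 h, because that column holds 1581 for miR-5115 in sham, where the detected probe had 5.66. With it miR-5115 turned, to −6.42, −4.05, −4.14, and −6.07 unscaled and −6.61, −4.58, −5.07, and −5.90 relative at 6, 12, 24, and 48 h. No other single miRNA value turned its sign in 416 recomputed values. Ratios over sham were compared between 12 and 24 h under each alternative, relative to the median miRNA unless the alternative itself scales the arrays. They were higher at 12 h in 50 of 52 combinations of miRNA and alternative. In the other 2, miR-5115 under quantile normalization and in the processed table, they were equal. The signal of miR-5115 was number 103 on both arrays, and quantile normalization gives the same rank the same value. All alternatives use the same arrays, so the combinations are not independent of each other. Unscaled, miR-5115 was higher at 12 h by 0.09 on the log2 scale, less than its scanner error of 0.17. Scaled to the spike-ins, 3 of the 4 were highest at 6 h, miR-3960 by only 0.07, less than its scanner error of 0.14. In sham, 1 probe of miR-5115 was not above 3 times its error, so its ratios as reported set 1 probe in sham against 2 after IRI.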
